A study of Mus musculus with 13 samples.

Results

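The genes described here are 34 members of the route by which muscle takes up, burns and controls the burning of fatty acids, measured in whole mouse quadriceps. They are given by name, for their roles in the route: 5 genes of uptake and binding, 6 of activation and the carnitine shuttle, 12 beta-oxidation enzymes, 3 of electron transfer, 6 of control and 2 uncoupling proteins. All 34 were found among the 24015 genes of the deposited table. All 34 also passed the filter on low values, which left 11876 genes, so no member was lost to it.

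RNA came from lysates of whole quadriceps of C57BL/6 mice, in 13 libraries of 4 groups. The first group, called young below, held 4 libraries (replicates 1, 3, 4 and 5) of mice aged 3 months that received vehicle in batch 1. The second held 3 libraries (replicates 2, 3 and 4) of mice aged over 24 months that received vehicle in batch 1. The third held 3 libraries (replicates 2, 3 and 8) of mice of that older age given vehicle in batch 2. The fourth, called treated below, held 3 libraries (replicates 1, 4 and 6) of such aged mice in batch 2, given SW033291 at 5 mg/kg. SW033291 is an inhibitor of 15-PGDH, an enzyme that breaks down prostaglandin E2. Vehicle and compound were injected into the peritoneum daily for 4 weeks, so all groups carried the injections. Young libraries existed in batch 1 only and treated libraries in batch 2 only, so age was compared inside batch 1 and treatment inside batch 2. The labels name no genetic change, and they do not say whether each library came from its own animal. The p-values therefore refer to differences among these libraries, which may be technical.

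Levels are TPM, which correct read numbers for gene length and express each gene as its share of the transcripts counted. TPM keep no read counts, and the sequencing depth is unknown. The number of genes at 1 TPM or more ranged from 10710 to 11687, and the 10 skeletal muscle markers summed to 84954 to 102630 TPM in 12 libraries and to 64830 TPM in aged batch 1 replicate 4. Most of that sum is Acta1 and Ckm, which were at their lowest there (24221 and 29159 TPM), as was Tcap (5068 TPM). In the same library Dmd was at its highest (20.5 TPM), and Ttn (304 TPM) and Neb (548 TPM) stood above all young libraries. That library also held the highest sums of 7 red cell markers (3332 TPM) and of 9 neutrophil markers (1725 TPM). Aged batch 2 replicate 2 was next, at 2077 TPM and 751 TPM, and treated replicate 4 held 224 TPM of the neutrophil markers. All other libraries held at most 13.8 TPM of neutrophil markers, and red cell markers outside those first 2 libraries summed to at most 546 TPM. The part of blood in the results was not tested. The cardiac markers Nppb and Myl7 were listed at 0 in all libraries. Aged batch 1 replicate 4 was the lowest of the 13 libraries for 14 of the 34. In bulk tissue, fewer cells of a type and less RNA per cell cannot be told apart.

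Fatty acids reach a muscle fibre from lipoprotein triglyceride or from albumin, cross the membrane with the help of Cd36 and transport proteins, and are bound in the cytosol by Fabp3. They are activated to acyl-CoA, carried into mitochondria as carnitine esters and shortened in a spiral of dehydrogenation, hydration, oxidation and thiolysis, whose electrons pass to the respiratory chain through electron transfer flavoprotein. Malonyl-CoA, made by acetyl-CoA carboxylases and removed by malonyl-CoA decarboxylase, blocks the carnitine step, and Pdk4 slows the entry of pyruvate when fat is burned. Many of these genes are known targets of the nuclear receptors PPAR-alpha and PPAR-delta, which are encoded by the members Ppara and Ppard.

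The 34 members together made up 0.472% to 0.696% of all TPM in a library, with the lowest share in aged batch 1 replicate 4 and the highest in aged batch 1 replicate 3. Fabp3 had the highest level, with a mean of 963 TPM over the 13 libraries. Hadhb, the beta subunit of the mitochondrial trifunctional protein, followed with 420 TPM, then Etfb (364 TPM), Pdk4 (361 TPM) and Acadm (318 TPM). The order among Etfb, Pdk4 and Acadm was not stable from library to library, since Pdk4 alone ranged from 59.0 to 572 TPM. At the low end stood Ppara (3.99 TPM), Cpt1a (4.12 TPM), Ucp2 (4.69 TPM), Acaca (5.23 TPM) and the transporter Slc27a4 (5.34 TPM), whose ranges overlapped.

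Where the list holds isoforms, the isoform known from muscle had the higher TPM in each of the 13 libraries. Cpt1b, the muscle carnitine palmitoyltransferase of the outer membrane, stood at 34.5 to 70.9 times the TPM of its liver isoform Cpt1a. The authors' deposited table of SW033291 had the opposite order, at mean levels of 4.88 normalised counts for Cpt1b and 35.2 for Cpt1a. The reason was not tested. Acacb, the carboxylase bound to mitochondria, stood at 6.10 to 29.5 times the TPM of the cytosolic Acaca. Ucp3, the uncoupling protein of muscle, stood at 11.5 to 115 times the TPM of Ucp2. The subunits of one complex kept a narrower ratio: Hadhb was 1.83 to 3.19 times Hadha, with the highest ratio in aged batch 1 replicate 4, and Etfb was 1.18 to 2.03 times Etfa.

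Members differed widely in how much they varied. From the lowest to the highest library, Pdk4 spanned 9.69-fold, Ucp3 6.71-fold, Acaca 6.30-fold and Ppara 3.71-fold. The carnitine acylcarnitine carrier Slc25a20 spanned 1.41-fold and the carnitine acetyltransferase Crat 1.43-fold. With Ucp2 next at 3.21-fold, the 5 widest ranges all belonged to genes of control or uncoupling, as the heat map of all members shows. Of these, Ppara, Ucp2 and Acaca were among the members with the lowest levels, at means of 3.99, 4.69 and 5.23 TPM. The part of counting error in their ranges could not be assessed.

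**Figure D1:**
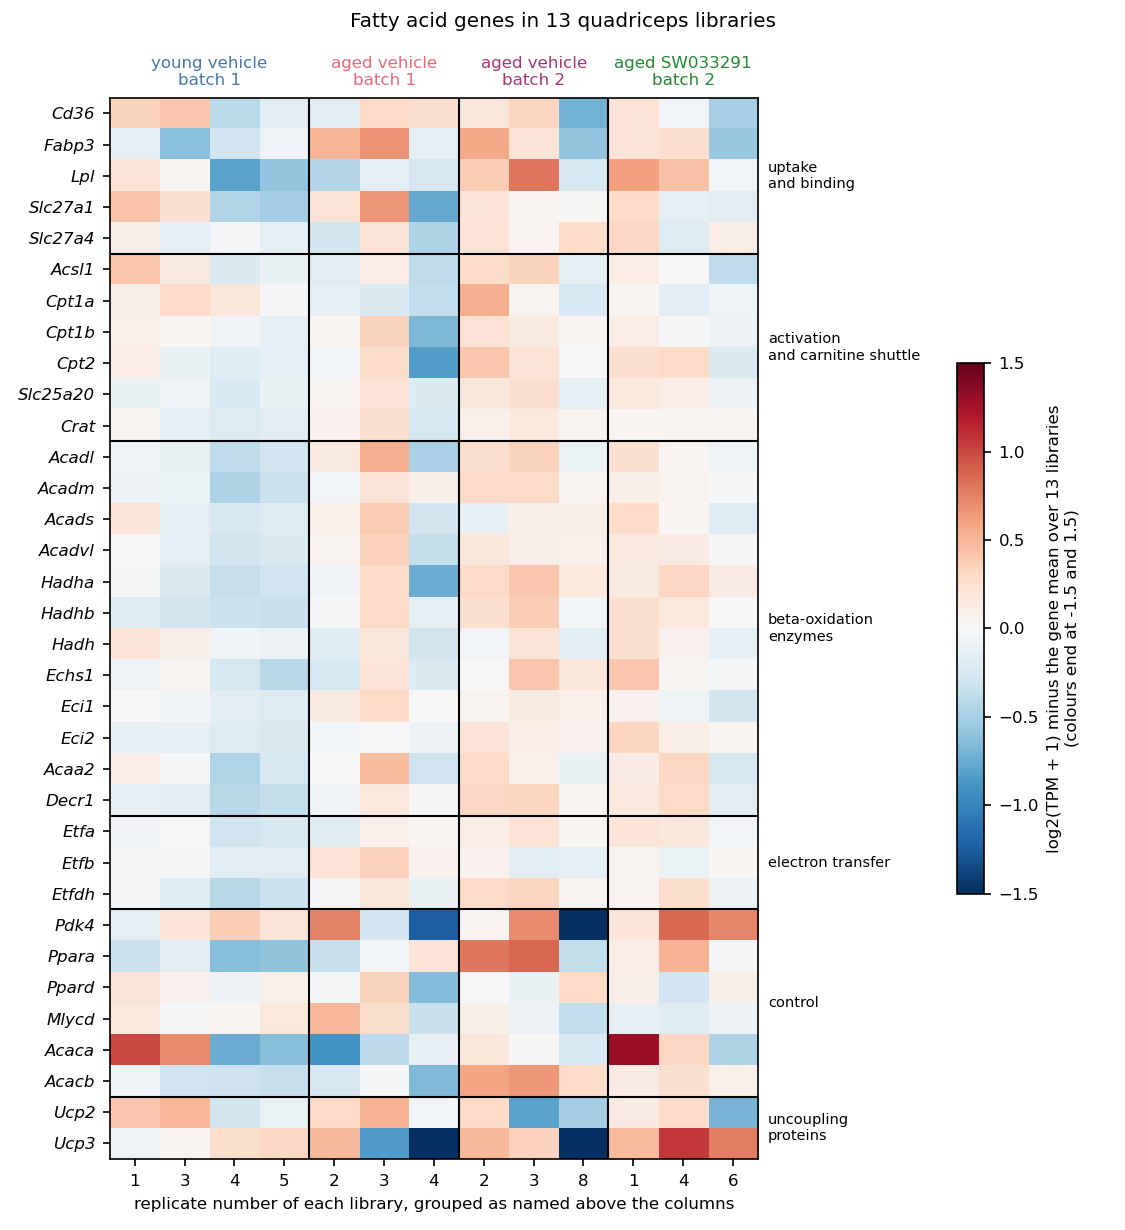
Rows are the 34 members grouped by role, columns the 13 libraries, and colour gives log2(TPM + 1) minus the mean of the gene over all libraries, with colours ending at -1.5 and 1.5. Pdk4 and Ucp3 are darkest blue in aged batch 1 replicate 4 and aged batch 2 replicate 8, and the 12 beta-oxidation enzymes are mostly blue in young replicates 4 and 5.

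The first comparison asks how these genes differ between aged and young muscle under vehicle in batch 1. None of the 34 members passed the test, against 0.455% of all tested genes (54 of 11876), 0.37% higher and 0.0842% lower in aged muscle. The test was limma on log2(TPM + 1), with p-values adjusted by the Benjamini-Hochberg method over all tested genes and a threshold of 0.05. At an unadjusted p under 0.05, 6 of 34 members (17.6%) differed, all higher in aged muscle, against 9.92% of all genes in either direction and 7.2% in that direction. In 6 members (17.6%) every aged library lay above every young library, against 8.85% of all genes. In 1 member, Cpt1a, every aged library lay below, against 2.7%. The median log2 difference was 0.12 over the members and 0.06 over all tested genes, and 23 of 34 members (67.6%) were above 0, against 61.2% of all genes. The members' median was 0.046 under median-of-ratios scaling, 0.031 after quantile normalization and 0.020 with the 20 most abundant genes left out, and 20, 19 and 18 members were then above 0. Without aged batch 1 replicate 3 it was -0.0035, without young replicate 4 it was 0.056 and without young replicate 5 it was 0.071.

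By role, 11 of the 12 beta-oxidation enzymes had a log2 difference above 0, with a median of 0.19, and 5 of the 6 members without overlap were among them. All 3 electron transfer genes were above 0, with a median of 0.25. Of the uptake genes, 4 of 5 were above 0, with a median of 0.08. The shuttle genes had 2 of 6 above 0 and a median of -0.10, and the control genes 2 of 6 and a median of -0.12. Of the 2 uncoupling proteins 1 was above 0. No member of any of these groups passed the test, with adjusted p-values from limma of 0.206 to 0.992.

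Acadm, the dehydrogenase of medium-chain acyl-CoA, measured 296, 294, 228 and 253 TPM in young replicates 1, 3, 4 and 5. It measured 308, 360 and 335 TPM in aged batch 1 replicates 2, 3 and 4. The lowest aged library was just above the highest young one. The means were 268 ± 33.2 TPM (SD, n = 4) and 334 ± 26.3 TPM (SD, n = 3), a log2 difference of 0.32 with an SE of 0.11 and an adjusted p of 0.268 (limma, Benjamini-Hochberg).

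Hadhb, which carries the thiolase of the trifunctional protein, measured 363, 343, 333 and 330 TPM in the young libraries and 411, 504 and 374 TPM in the aged libraries of batch 1. The young values lay close together, and aged replicate 3 stood well above the other aged libraries. The log2 difference was 0.32 (SE 0.12), with an adjusted p of 0.340 by limma. Hadha, the alpha subunit with the hydratase, did not show the same separation: it measured 193, 170, 156 and 160 TPM in young and 190, 241 and 117 TPM in aged libraries, which overlapped.

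Decr1, a dienoyl-CoA reductase needed for unsaturated chains, measured 70.2, 68.1, 57.1 and 59.5 TPM in young and 73.6, 85.5 and 77.5 TPM in aged batch 1. Its log2 difference was 0.31 (SE 0.13, limma adjusted p = 0.417). Both enoyl-CoA isomerases of the list, which also serve unsaturated chains, separated as well. Eci1 measured 174, 169, 157 and 154 TPM in young and 193, 214 and 177 TPM in aged libraries, a log2 difference of 0.25 (SE 0.10, limma adjusted p = 0.386). Eci2 measured 73.5, 74.0, 70.7 and 69.7 TPM against 78.4, 81.3 and 76.1 TPM, a small but separated log2 difference of 0.13 (SE 0.09, limma adjusted p = 0.750). For Eci1 and Eci2 the gap between the groups was narrow.

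Etfb, the beta subunit of electron transfer flavoprotein, measured 358, 355, 323 and 323 TPM in young and 420, 462 and 379 TPM in aged batch 1. This was the smallest adjusted p of the members in the age comparison, 0.206 by limma, for a log2 difference of 0.30 (SE 0.09). The separation did not extend to batch 2, where the aged vehicle libraries measured 377, 325 and 331 TPM, inside or just above the young range. Etfb and the batch are taken up again below with the comparison of the batches.

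Fabp3, the fatty acid binding protein of heart and muscle, had the largest log2 difference of the members with age, 0.63 (SE 0.28, limma adjusted p = 0.467). Young libraries measured 837, 598, 750 and 888 TPM and aged libraries of batch 1 measured 1314, 1473 and 838 TPM. Aged replicates 2 and 3 were far above the young range, while aged replicate 4 lay inside it. Ppara was the next highest by difference at 0.38 (SE 0.28, limma adjusted p = 0.747), at 2.77, 3.21, 2.04 and 2.10 TPM in young and 2.75, 3.59 and 4.44 TPM in aged libraries, which overlapped.

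Cpt1a, the isoform of the outer carnitine palmitoyltransferase with the lower TPM, was the 1 member whose aged libraries all lay below the young ones. It measured 4.37, 5.14, 4.70 and 3.97 TPM in young and 3.63, 3.39 and 2.92 TPM in aged batch 1. The log2 difference was -0.36 (SE 0.19, limma adjusted p = 0.576). In batch 2 the aged vehicle libraries measured 6.39, 4.25 and 3.26 TPM, which spans the young range. Cpt1b, which had the higher TPM, had a log2 difference of -0.08 (SE 0.17, limma adjusted p = 0.936), and of 0.20 without aged replicate 4 (limma adjusted p = 0.481).

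**Figure D2:**
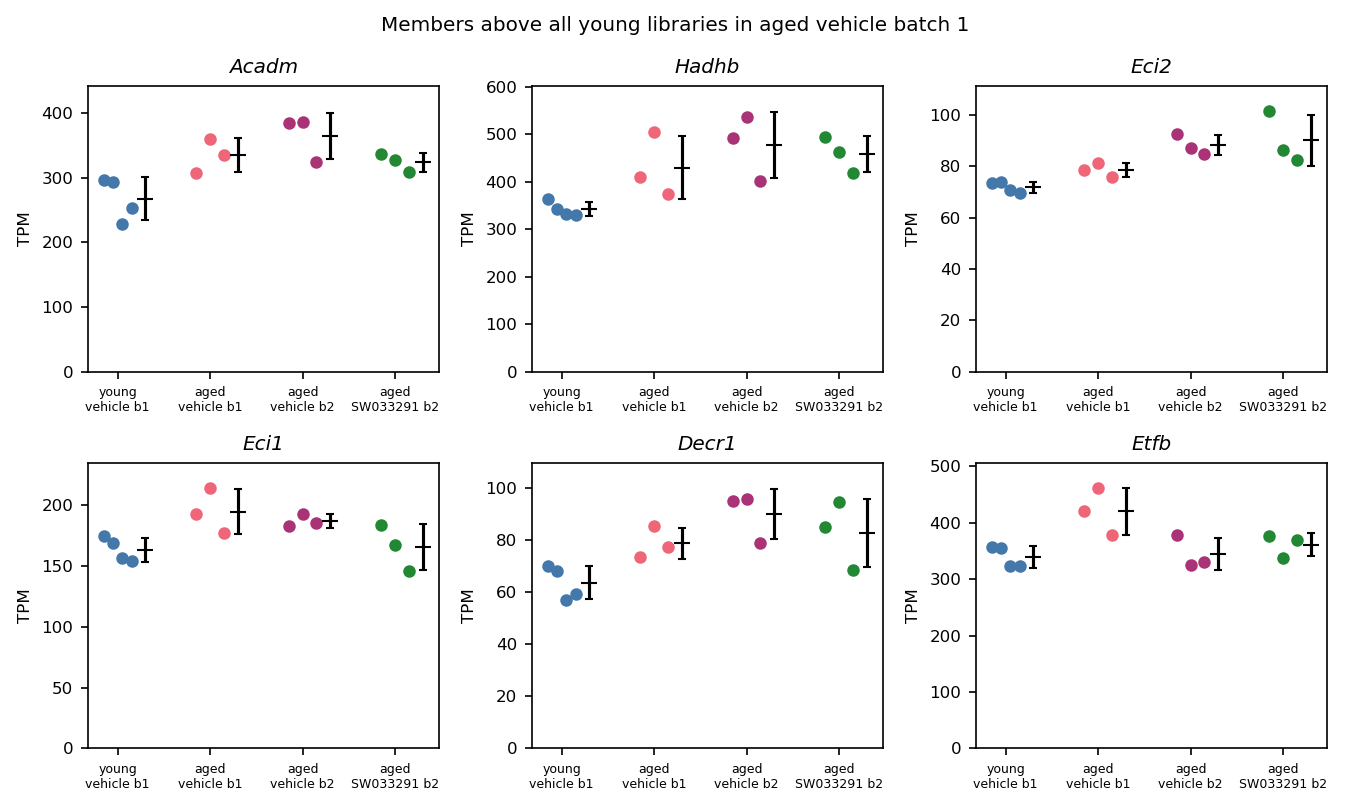
Points are TPM in single libraries for the 6 members whose aged vehicle libraries of batch 1 all lay above the young ones, and bars are the mean and SD of each group (n = 4, 3, 3 and 3). Acadm, Hadhb and Eci2 stay above the young range in all 9 aged libraries, while Etfb in batch 2 lies inside the young range or just above it.

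Aged batch 1 replicate 4 had the lowest sum of muscle markers, though not the lowest level of each. Leaving it out raised the number of members above all young libraries from 6 to 12 (35.3%), against 16.2% of all genes. The added members were Fabp3, Slc25a20, Crat, Acadl, Acadvl and Mlycd. The median of the members was then 0.26, and again none passed the test. The aged vehicle libraries of batch 2 alone lay above all young libraries in 11 members (32.4%), against 28.4% of all genes, and below them in none, against 5.84%. Age and batch cannot be told apart there. With all 6 aged vehicle libraries against the young, 5 members (Acadm, Hadhb, Eci1, Eci2 and Decr1, 14.7%) lay above, against 4.8% of all genes, and none lay below, against 1.02%. In that fit, in which batch is partly in the contrast, 3 members passed limma's test, against 5.01% of all genes: Acadm at a log2 difference of 0.39 (adjusted p = 0.0305), Hadhb at 0.39 (adjusted p = 0.0389) and Decr1 at 0.40 (adjusted p = 0.0486). Over all 9 aged libraries, treated ones included, Acadm, Hadhb and Eci2 lay above every young library (8.82% of members, against 3.29% of all genes), and none lay below, against 0.783%.

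The enzymes were also set beside the citrate cycle, the next step of oxidation in the same mitochondria. Of 16 citrate cycle genes, 6 had a log2 difference above 0 with age, with a median of -0.02, and none passed limma's test. Per library, the mean log2(TPM + 1) of the 12 beta-oxidation enzymes minus that of the 16 citrate cycle genes was -1.36, -1.45, -1.51 and -1.47 in young libraries. It was -1.25, -1.18 and -1.36 in aged batch 1, -1.27, -1.28 and -1.35 in aged batch 2 and -1.25, -1.34 and -1.41 in treated libraries. The 2 batches of aged vehicle libraries all stood above the young ones, with aged batch 1 replicate 4 and young replicate 1 almost level.

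The upstream sequences of Acadm and Hadhb are shown because these members stood above the young range in all 9 aged libraries and followed each other across libraries (Pearson r = 0.87 over 13 libraries). Their separation from the young libraries itself contributes to that r. RefSeq on GRCm38.p6 gives a window for 29 of the 34 members, 32 windows in all, and the 250 bases before the annotated start are printed 5′ to 3′ in the direction of the gene. The authors' values were made on another build, mm9, and no coordinate of theirs is used. The Acadm window is chr3:153944644-153944893 on the minus strand, and the Hadhb window chr5:30155003-30155252 on the plus strand. Capitals mark AGGTCA, the core element bound by nuclear receptors, or GGGCGG, the GC box, on either strand, so that TGACCT is AGGTCA on the opposite strand.
Acadm: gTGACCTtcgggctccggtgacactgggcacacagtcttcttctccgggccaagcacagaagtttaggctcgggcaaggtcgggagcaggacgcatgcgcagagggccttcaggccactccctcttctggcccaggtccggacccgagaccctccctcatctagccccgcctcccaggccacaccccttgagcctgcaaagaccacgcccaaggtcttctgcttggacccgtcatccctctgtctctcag
Hadhb: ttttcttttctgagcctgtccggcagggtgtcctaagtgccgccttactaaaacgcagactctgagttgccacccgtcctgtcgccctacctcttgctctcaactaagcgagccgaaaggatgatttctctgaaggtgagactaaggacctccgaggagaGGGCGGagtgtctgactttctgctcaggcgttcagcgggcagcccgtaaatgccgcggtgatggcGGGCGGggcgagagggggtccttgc
Acadm held 1 AGGTCA and no GGGCGG, and Hadhb held 2 GGGCGG and no AGGTCA. Among the members' windows, AGGTCA was present in 6 of 32 (18.8%), against 14.0% of all 32851 windows of this length. GGGCGG was present in 19 of 32 (59.4%), against 32.7% of all windows, which also include genes outside muscle. The 19 are not all separate, since Slc27a1 is counted there with more than 1 window and those of Hadha and Hadhb overlap. The longer element DR1, a direct repeat of AGGTCA with 1 base between the copies, was in none of the 32 windows and in 0.0335% of all windows. Hadha and Hadhb are neighbours that run in opposite directions with 273 bases between their starts, and their windows share 228 bases.

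The second comparison asks how SW033291 differs from vehicle in aged muscle of batch 2. None of the 34 members and none of the 11876 genes passed limma's test after Benjamini-Hochberg adjustment (0% of all genes). At an unadjusted p under 0.05 there were 1221 genes (10.3%), of which 1 was a member (2.94%). No member had all treated libraries above all vehicle libraries, against 1.95% of all genes, and 2 members (5.88%), Acacb and Crat, had all treated libraries below, against 15.1%. Of the members, 9 of 34 (26.5%) had a log2 difference above 0, against 28.9% of all genes. The median was -0.05 over the members and -0.13 over all genes. Since the share of all genes below 0 depends on scaling, the same median over all genes was -0.0040 when libraries were scaled by the median of ratios, and 28 of 34 members were then above 0, with a median of 0.09. Directions of small differences in this comparison are therefore given as values only. In the authors' deposited table of this comparison, 28 of 34 members were above 0.

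Pdk4 and Ucp3 had the largest log2 differences of the members under SW033291, and neither passed the test. Pdk4, a kinase that inactivates pyruvate dehydrogenase, measured 324, 516 and 59.0 TPM in aged vehicle batch 2 replicates 2, 3 and 8 and 359, 572 and 524 TPM in treated replicates 1, 4 and 6. The groups overlapped, and vehicle replicate 8 stood far below all other libraries. The log2 difference was 1.14 with an SE of 0.62, a 95% interval of -0.19 to 2.47 and an adjusted p of 0.534 (limma). Without vehicle replicate 8 it was 0.22 (limma adjusted p = 0.836).

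Ucp3, an uncoupling protein of the inner membrane, measured 224, 202 and 51.3 TPM in vehicle and 223, 333 and 271 TPM in treated libraries. The same vehicle replicate 8 was low. The log2 difference was 1.03 with an SE of 0.52, a 95% interval of -0.09 to 2.15 and an adjusted p of 0.512 (limma), and without vehicle replicate 8 it was 0.35 (limma adjusted p = 0.726). In the authors' deposited table of SW033291, the log2 fold change of Ucp3 was 1.00 with an unadjusted p of 0.0864. Ucp2 stood at 5.74, 2.14 and 2.81 TPM in vehicle and 4.96, 5.59 and 2.37 TPM in treated libraries, with overlap.

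Aged vehicle batch 1 held a library that was low in both genes too. In batch 1, Pdk4 measured 284, 360, 407 and 364 TPM in young libraries and 529, 257 and 133 TPM in aged replicates 2, 3 and 4. Ucp3 measured 151, 163, 191 and 197 TPM in young and 225, 88.0 and 49.6 TPM in aged replicates 2, 3 and 4. Aged values lay on both sides of the young ranges for both genes. The log2 differences with age were -0.42 (SE 0.58, limma adjusted p = 0.889) for Pdk4 and -0.80 (SE 0.49, limma adjusted p = 0.670) for Ucp3. Without aged replicate 4 they were 0.07 and -0.31.

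Across the 13 libraries, Pdk4 and Ucp3 were high and low in the same ones. Pearson's r of log2(TPM + 1) was 0.91 (permutation p = 2e-05, Benjamini-Hochberg adjusted p = 0.00102 over 561 pairs of members) and Spearman's rho 0.85 (permutation p = 0.00059, adjusted p = 0.00889). Within batch 1 r was 0.96 over 7 libraries, and within batch 2 it was 0.97 over 6 libraries. Without the 2 libraries farthest from the median of Pdk4, r was 0.80. The libraries share groups, batches and the TPM scale, and the permutations shuffled libraries across groups and batches. The upstream windows of both genes are printed because the pair moved together: Pdk4 at chr6:5496279-5496528 on the minus strand and Ucp3 at chr7:100472741-100472990 on the plus strand, with capitals as above.
Pdk4: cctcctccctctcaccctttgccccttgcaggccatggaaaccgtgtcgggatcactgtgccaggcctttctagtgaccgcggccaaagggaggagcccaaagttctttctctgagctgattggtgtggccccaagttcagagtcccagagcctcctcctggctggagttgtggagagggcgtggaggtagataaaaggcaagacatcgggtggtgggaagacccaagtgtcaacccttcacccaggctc
Ucp3: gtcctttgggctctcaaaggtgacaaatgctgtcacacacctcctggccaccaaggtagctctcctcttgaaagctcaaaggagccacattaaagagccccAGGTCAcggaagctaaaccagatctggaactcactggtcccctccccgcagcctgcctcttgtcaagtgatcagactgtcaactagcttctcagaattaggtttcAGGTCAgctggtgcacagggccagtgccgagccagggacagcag
The Ucp3 window held 2 AGGTCA and the Pdk4 window none, and neither held GGGCGG. A match describes letters in this window only. Ucp3 and Ucp2 are neighbours on the same strand with 20367 bases between their starts, and their r across libraries was 0.04.

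**Figure D3:**
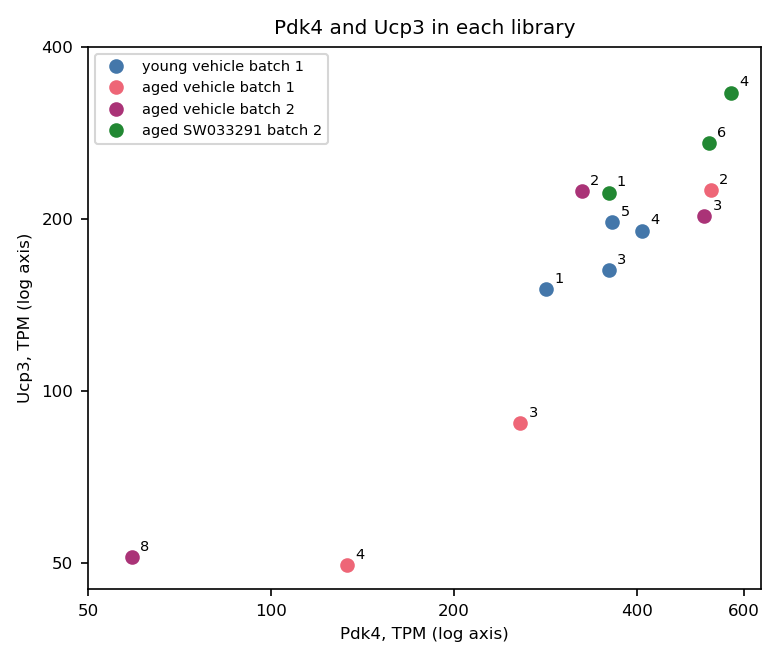
Each point is 1 library, with Pdk4 on the x axis and Ucp3 on the y axis, both in TPM on log axes, coloured by group and numbered by replicate. Aged vehicle batch 2 replicate 8 (59.0 and 51.3 TPM) and aged vehicle batch 1 replicate 4 (133 and 49.6 TPM) lie at the lower left, and treated replicate 4 (572 and 333 TPM) at the upper right.

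Acacb, whose product malonyl-CoA blocks the carnitine step at mitochondria, was the member with the smallest p under SW033291. It measured 107, 111 and 85.6 TPM in aged vehicle batch 2 and 76.9, 83.3 and 74.5 TPM in treated libraries, without overlap. The means were 101 ± 13.6 and 78.2 ± 4.55 TPM (SD, n = 3 each), a log2 difference of -0.36 (SE 0.16) with an unadjusted p of 0.0378 and an adjusted p of 0.463 by limma. It was -0.21 when libraries were scaled by the median of ratios (unadjusted p = 0.222, limma adjusted p = 0.810) and -0.23 after quantile normalization (unadjusted p = 0.164, limma adjusted p = 0.815). The 10 slow fibre markers were all below 0 in this comparison, with a median log2 difference of -1.02, and none passed the test. They summed to 824, 615 and 194 TPM in vehicle and 170, 903 and 89.0 TPM in treated libraries, with overlap. Of 11 fast fibre markers 7 were above 0 and none passed. The part of fibre type in the result was not tested. The authors' deposited table gave -0.22 for Acacb, with an unadjusted p of 0.10. Crat, which buffers acetyl-CoA as acetylcarnitine, also lay below without overlap, at 233, 245 and 227 TPM in vehicle and 225, 226 and 226 TPM in treated libraries. For Crat the gap was narrow and the log2 difference -0.06 (SE 0.12, limma adjusted p = 0.863). It was 0.09 when libraries were scaled by the median of ratios and 0.02 after quantile normalization.

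The remaining members of the largest differences under SW033291 overlapped between groups. Acsl1, which activates long-chain fatty acids in muscle, measured 154, 160.5 and 115 TPM in vehicle and 137, 126 and 97.3 TPM in treated libraries (log2 difference -0.25, SE 0.19, limma adjusted p = 0.634). Ppara measured 7.16, 7.56 and 2.67 TPM against 4.10, 5.76 and 3.66 TPM (log2 difference -0.22, SE 0.30, limma adjusted p = 0.780). Without vehicle replicate 8 the Ppara difference was -0.62 (limma adjusted p = 0.318). The 12 beta-oxidation enzymes had log2 differences between -0.18 and 0.07, and the 3 electron transfer genes between -0.15 and 0.07. All 6 shuttle genes were at or below -0.03. Without vehicle replicate 8, 12 members (35.3%) had all treated libraries below the vehicle libraries, against 30.7% of all genes, and none above, against 4.98%.

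**Figure D4:**
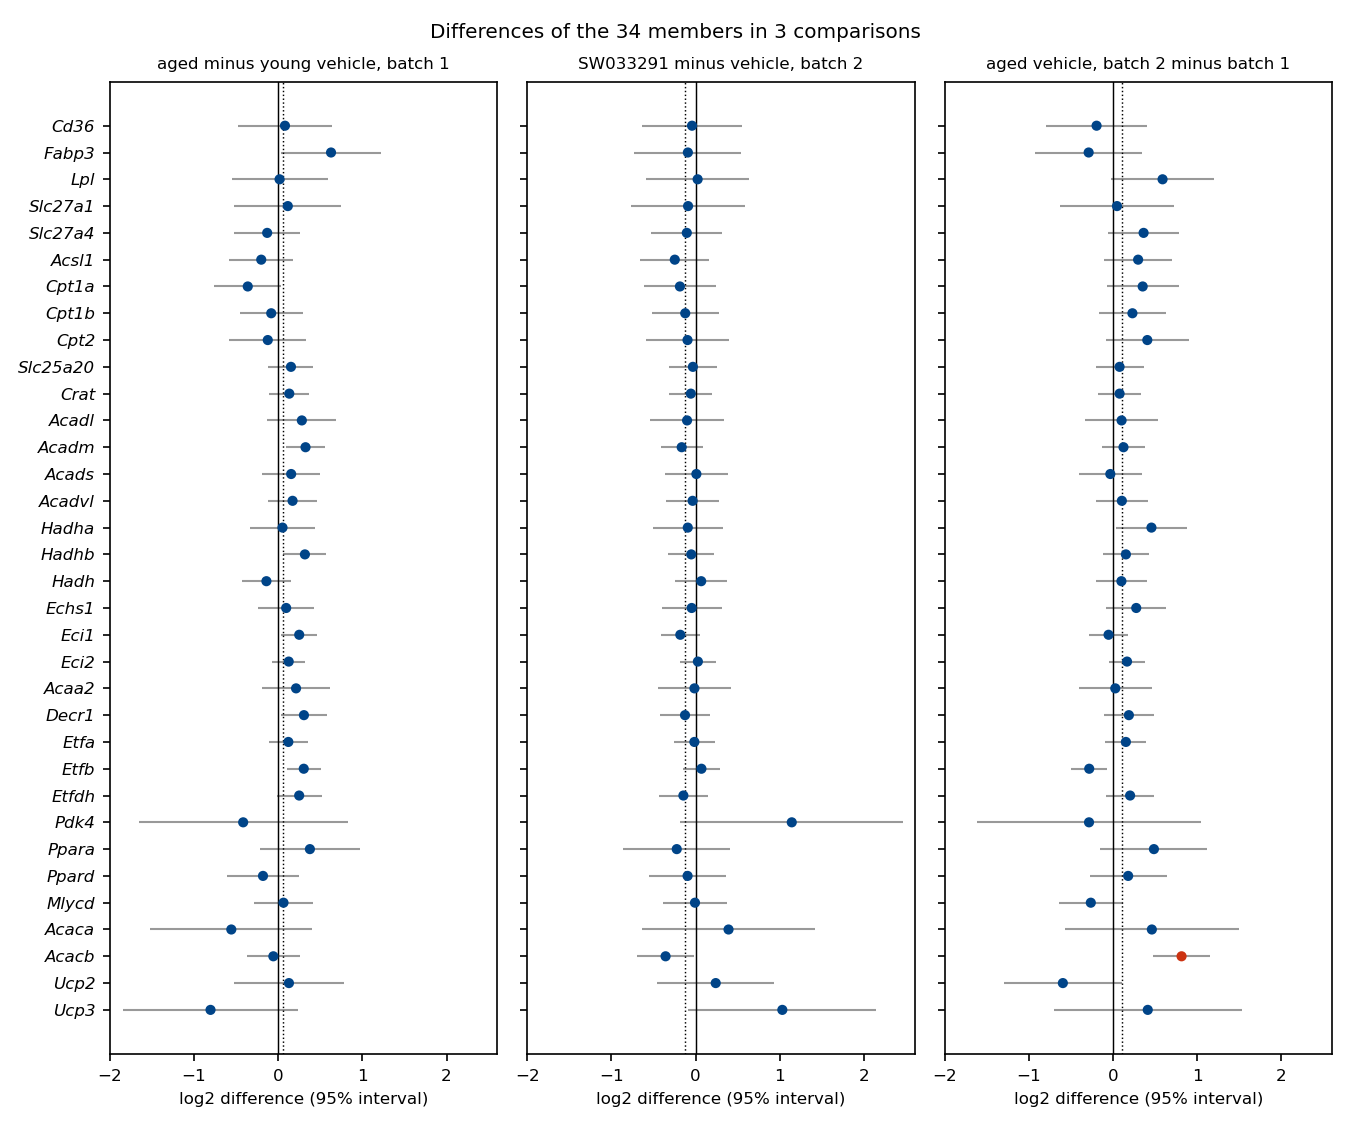
Points are log2 differences of log2(TPM + 1) for the 34 members and lines their 95% intervals, in 3 comparisons, with a dotted line at the median of all tested genes and red for an adjusted p under 0.05. Acacb between the batches is the only red point, and the widest intervals belong to Pdk4, Ucp3 and Acaca.

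The third comparison measures how far the 2 sets of aged vehicle libraries differ, batch 2 minus batch 1, at the same labelled age and treatment. Of the members 1 of 34 (2.94%) passed limma's test, against 2.25% of all genes (267 of 11876), 1.72% higher and 0.53% lower in batch 2. At an unadjusted p under 0.05 there were 3 members (8.82%), against 18.1% of all genes, 13.7% higher and 4.41% lower. Of these members Acacb and Hadha were higher and Etfb lower. In 2 members, Acacb and Eci2 (5.88%), all libraries of batch 2 lay above those of batch 1, against 11.9% of all genes, and in 1, Etfb, all lay below, against 4.64%. The median was 0.15 over the members and 0.11 over all genes, with 26 of 34 members (76.5%) above 0, against 64.2%. Under median-of-ratios scaling the medians were 0.0073 and -0.013, with 18 of 34 members above 0, and without aged batch 1 replicate 4 the members' median was -0.013, with 17 of 34 above 0. Batch and any unlabelled difference between the sets of mice cannot be told apart.

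Acacb was the member that passed, higher in batch 2. It measured 59.1, 69.8 and 44.3 TPM in aged vehicle batch 1 and 107, 111 and 85.6 TPM in batch 2, with no overlap. The log2 difference was 0.81 (SE 0.16, 1.76-fold, limma adjusted p = 0.0222). The young libraries of batch 1 measured 67.6, 57.3, 56.7 and 55.4 TPM, at the level of aged batch 1, and the treated libraries of batch 2, at 74.5 to 83.3 TPM, lay between the 2 aged vehicle groups. The call was lost when libraries were scaled by the median of ratios (0.67, adjusted p = 0.0679), when only the 2 groups entered the fit (adjusted p = 0.272), and without aged batch 1 replicate 2 (adjusted p = 0.0838), aged batch 2 replicate 2 (adjusted p = 0.0935) or aged batch 2 replicate 3 (adjusted p = 0.118). The 10 slow fibre markers were all above 0 in this comparison, with a median log2 difference of 0.97, and none passed the test. They summed to 76.1, 141 and 904 TPM in aged batch 1 replicates 2, 3 and 4. In batch 2 they summed to 824, 615 and 194 TPM, so the groups overlapped. Aged batch 1 replicate 4, at 904 TPM, had the lowest Acacb of the 13 libraries. Of 11 fast fibre markers 6 were above 0, with a median of 0.15, and 1 passed higher and 1 lower in batch 2. The part of fibre type in the result was not tested.

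Other members differed between the batches without passing. Lpl, the lipase that frees fatty acids from lipoproteins, measured 150, 185 and 171 TPM in batch 1 and 265, 354 and 172 TPM in batch 2 (log2 difference 0.59, SE 0.28, limma adjusted p = 0.295). Ppara had a log2 difference of 0.48 (SE 0.30, limma adjusted p = 0.421), with batch 2 replicates 2 and 3 above all libraries of batch 1 and replicate 8 below them. Hadha measured 190, 241 and 117 TPM against 241, 262 and 220 TPM (0.45, SE 0.19, limma adjusted p = 0.236), with replicate 4 of batch 1 far below the rest. Eci2 measured 78.4, 81.3 and 76.1 TPM against 92.5, 87.3 and 84.9 TPM (0.17, SE 0.10, limma adjusted p = 0.409).

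Lower in batch 2 were Ucp2 at -0.60 (SE 0.32, limma adjusted p = 0.355), Fabp3 at -0.29 (SE 0.30, limma adjusted p = 0.661) and Pdk4 at -0.29 (SE 0.62, limma adjusted p = 0.863), all with overlap. Etfb had the same size of difference, -0.28 (SE 0.10, limma adjusted p = 0.152), without overlap: 420, 462 and 379 TPM in batch 1 and 377, 325 and 331 TPM in batch 2. The values of the age comparison and of this one rest on the same aged libraries of batch 1. Without aged batch 1 replicate 4, Etfb, Mlycd and Acacb passed limma's test between the batches, at log2 differences of -0.36, -0.50 and 0.64, against 13.8% of all genes.

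Acaca, the carboxylase that feeds fatty acid synthesis, had wide ranges inside the young and treated groups. It measured 10.2 and 8.17 TPM in young replicates 1 and 3 and 2.35 and 2.61 TPM in young replicates 4 and 5. Aged batch 1 measured 2.00, 3.25 and 4.14 TPM, aged batch 2 measured 5.30, 4.66 and 3.78 TPM, and treated replicates 1, 4 and 6 measured 12.6, 5.97 and 3.05 TPM. The log2 differences were -0.56 with age (SE 0.45, limma adjusted p = 0.778) and 0.39 under SW033291 (SE 0.48, limma adjusted p = 0.764). Without treated replicate 1 the latter was -0.06. In the authors' deposited table of SW033291, Acaca was the 1 member with an unadjusted p under 0.05, at a log2 fold change of 0.75 (p = 0.0412).

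The 3 libraries highest in Acaca were also the 3 highest in fat cell markers. The summed level of 8 adipocyte markers was 3047 and 2027 TPM in young replicates 1 and 3 and 3526 TPM in treated replicate 1. In the other 10 libraries it lay between 521 and 1238 TPM, and Acaca there between 2.00 and 5.97 TPM. By group the sum ran from 552 to 3047 TPM in young, 652 to 1238 TPM in aged batch 1, 521 to 750 TPM in aged batch 2 and 704 to 3526 TPM in treated libraries, and no adipocyte marker was at 0 throughout. The part of fat tissue in the Acaca values was not tested. Adipocytes and capillaries also express Lpl and Cd36. Young replicates 1, 3, 4 and 5 measured 233, 209, 116 and 135 TPM for Lpl and 146, 154, 87.0 and 103 TPM for Cd36. Among treated libraries replicate 1 was highest in both (312 and 133 TPM). High values were not limited to these 3 libraries: aged batch 2 replicate 3 measured 354 TPM for Lpl and 144 TPM for Cd36. The part of fat tissue in the Lpl and Cd36 values was not tested.

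**Figure D5:**
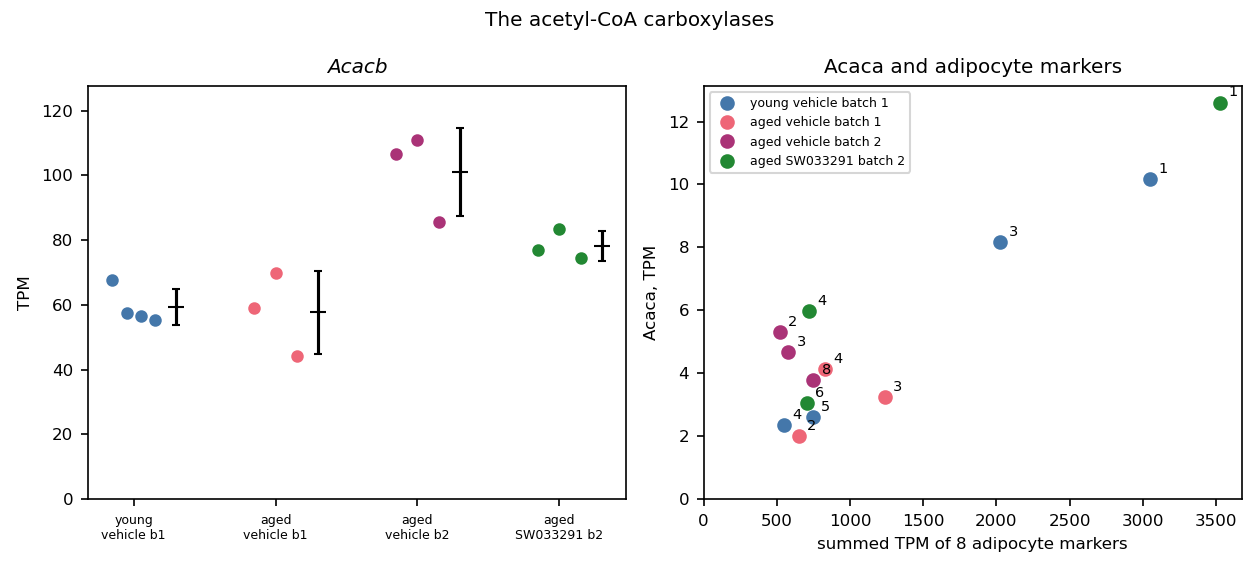
Left, Acacb in TPM by library with the mean and SD of each group (n = 4, 3, 3 and 3); right, Acaca in TPM against the summed TPM of 8 adipocyte markers, 1 numbered point a library. Aged vehicle batch 2 stands highest for Acacb at 85.6 to 111 TPM, and treated replicate 1 and young replicates 1 and 3 lie apart from the rest for Acaca.

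The members were also compared with each other across the 13 libraries. The median Pearson r over all 561 pairs was 0.45, and over the 66 pairs of beta-oxidation enzymes it was 0.68. The closest pair was Decr1 and Etfdh, the dehydrogenase that passes electrons from the flavoprotein to ubiquinone, with r = 0.96 (permutation p = 1e-05, the smallest that 100000 permutations can give, adjusted p = 0.00102) and rho = 0.96 (permutation p = 1e-05, adjusted p = 0.00187). Within the batches r was 0.93 over 7 and 0.96 over 6 libraries, and without the 2 farthest libraries 0.93. Hadha and Hadhb, subunits of 1 protein, had r = 0.80 (permutation p = 0.00095, adjusted p = 0.00951) and rho = 0.83, with 0.64 and 0.72 within the batches and 0.92 without the 2 farthest libraries. The lowest r was -0.44, between Etfa and Mlycd (permutation p = 0.132, adjusted p = 0.260). These values describe 13 libraries that share groups and batches, and TPM are shares of 1 total. The permutations shuffled libraries across groups and batches. No median r was computed for pairs of other genes, so these medians cannot show whether the members go together more than other genes.

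Genes around the members were read from lists of the same route. With age, 1 gene of these lists passed the test: Acsl6, another long-chain acyl-CoA synthetase, rose. It measured 15.6, 13.7, 12.2 and 14.5 TPM in young and 21.6, 31.8 and 30.3 TPM in aged batch 1, a log2 difference of 0.93 (SE 0.18, limma adjusted p = 0.0336), while Acsl1 of the member list had -0.20 (SE 0.18, limma adjusted p = 0.803). All 9 aged libraries lay above the young ones for Acsl6. Ech1, an isomerase of unsaturated chains, did not pass but was the highest of 14 other mitochondrial acyl-CoA enzymes at 0.63 (SE 0.15, limma adjusted p = 0.0806), of which 9 were above 0. In the list of 17 genes of triglyceride storage and lipolysis, 5 were above 0, with Hilpda highest at 0.81 and Dgat2 lowest at -0.80. Dgat2 measured 86.2, 62.9, 14.2 and 22.0 TPM in young replicates 1, 3, 4 and 5. In aged batch 1 it measured 18.4, 34.9 and 13.3 TPM, with overlap. Of 13 genes of fatty acid synthesis 1 was above 0, with a median of -0.48 and Fasn lowest at -1.64, beside adipocyte markers that were below 0 in 8 of 8. Fasn measured 52.3, 32.3, 4.02 and 5.85 TPM in young replicates 1, 3, 4 and 5. In aged batch 1 it measured 2.87, 6.03 and 3.76 TPM, with overlap. Young replicates 1 and 3 were also the young libraries highest in adipocyte markers. The part of fat tissue in those values was not tested.

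Among 21 regulators, 12 were above 0 with age, with Klf15 highest at 0.79 (SE 0.22, limma adjusted p = 0.164) and Foxo1 lowest at -0.51. Peroxisomal oxidation had 8 of 14 above 0 (Decr2 highest at 0.44), ketone body use 4 of 5 and pyruvate dehydrogenase control 7 of 11. None of these passed. The authors' deposited age table lists 813 genes, all with an adjusted p of at most 0.0999, and holds none of the 34 members. It holds 12 genes of the surrounding lists, Fasn and Rxra among them, and neither Acsl6 nor Ech1.

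Under SW033291, 0 genes of these lists passed limma's test. The highest were Angptl4, an inhibitor of Lpl, at 1.32 (SE 0.50, limma adjusted p = 0.418), and Scd1 at 1.15, beside adipocyte markers above 0 in 8 of 8. The adipocyte markers summed to 3526, 722 and 704 TPM in treated replicates 1, 4 and 6, and to 521, 578 and 750 TPM in vehicle. Scd1 measured 158, 54.9 and 30.1 TPM in those treated libraries and 20.3, 27.9 and 40.4 TPM in vehicle, with overlap. The part of fat tissue in these values was not tested. Angptl4 measured 3.81, 4.58 and 0.67 TPM in vehicle and 16.9, 5.92 and 4.69 TPM in treated libraries, so its groups did not overlap and 1 library of each group stood apart. Between the batches, 1 gene of these lists passed: Lpin1, a phosphatidate phosphatase, rose in batch 2 by 0.95 on the log2 scale (SE 0.14, limma adjusted p = 0.0094).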

How the data were processed

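The authors deposited a table of TPM for 24015 genes in 13 libraries of whole quadriceps, and the submitters' processing notes name STAR, RSEM, DESeq2, DESeq and mm9. Versions: not given in the sources used here. Per the labels' protocols, RNA was extracted with Trizol and an RNeasy kit and libraries were made with TruSeq v2. The authors also deposited tables of the age and SW033291 comparisons. Per the file headers, these hold, per gene, a log2 fold change, the standard error of it, a test statistic (a score), a p-value and a mean level of normalised counts (a signal). Which libraries entered them is not given in the sources used here.

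Gene names in the deposited TPM table did not stand beside their own values. Spreadsheet dates were turned back into gene symbols in 27 cases, and all names were sorted in byte order and assigned to the rows as they stood. The Spearman correlation of mean TPM with the mean level in the authors' deposited SW033291 table was -0.0174 as deposited and 0.960 after sorting, across genes, which are not independent replicates. Every value rests on this order.

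The scale used was log2(TPM + 1), which understates the change of low genes. A gene was tested if 3 libraries or more held it at 1 TPM or above, and these 11876 genes entered 1 limma fit (version 3.58.1, R 4.3.3) over 13 libraries with a coefficient per group and moderated variances with a trend on expression. The Benjamini-Hochberg adjustment ran over all tested genes, with a threshold of 0.05. The fit was tested on simulated data. Group sizes and the unknown depth limit the precision. Replicate numbers of the titles were checked for pairing and gave no sign of it, but too few numbers are shared to exclude it.

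The members and the lists around them were chosen with earlier results of these data known. A member was described in full where it passed, where its groups did not overlap, or where it had 1 of the 3 largest or 3 smallest differences of a comparison. Genes around the members were named where they passed or were the highest or lowest of their list in the age or SW033291 comparison, except 1 that is not reported here. Marker lists also covered capillary endothelium, macrophages and T and B cells. Their summed levels over the libraries were 122 to 240 TPM, 63.1 to 227 TPM and 0.53 to 5.76 TPM. Fast fibre markers summed to 200392 to 230515 TPM, slow fibre markers to 76.1 to 904 TPM and cardiac markers to 128 to 929 TPM. Alternatives were other pseudocounts, filters and scalings, a fit of only the groups compared, a replicate block, leaving out each library, and the aged vehicle libraries of both batches together.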

Additional observations from a re-analysis of the deposited data

Results flagged for a closer look

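Dixon's test at the 95% level was run on the young group for each of the 34 members, since the other groups hold 3 libraries and are too small for it. Acads, a short-chain acyl-CoA dehydrogenase, had a highest value of 80.38 TPM in young replicate 1, far from the other young libraries at 63.3, 60.0 and 61.4 TPM (gap over range 0.838, critical value 0.829). For Acacb the highest value was 67.57 TPM, again in young replicate 1, beside 57.3, 56.7 and 55.4 TPM (gap over range 0.843). Chance flags about 5% of such groups.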

How the results depend on the processing

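Under 18 alternatives no member passed with age in 17, and 3 passed with the aged vehicle libraries of both batches together. No member passed under SW033291 in any of 15 alternatives. The count of all genes called with age, 54 (44 higher, 10 lower), was 56 (36 higher, 20 lower) under median-of-ratios scaling, 71 (41 higher, 30 lower) after quantile normalization, 63 (35 higher, 28 lower) with the 20 most abundant genes left out, 27 without a filter, 31 without a variance trend, 24 with only the 2 groups, 4 with a replicate block, 595 with both aged vehicle batches and 19 to 92 when 1 library was left out. Under SW033291 the count of 0 became 4 at a pseudocount of 0.1 and 1 without a variance trend, and was 0 to 1 with 1 library left out. Between the batches the count of 267 (204 higher, 63 lower) was 144 (46 higher, 98 lower) under median-of-ratios scaling, 98 (53 higher, 45 lower) after quantile normalization, 112 without a variance trend, 1 with only the 2 groups, 2447 with a replicate block and 18 to 1643 with 1 library left out. Members called between the batches, 1, were 0 under median-of-ratios scaling, 0 with only the 2 groups, 3 with a replicate block (Ppara and Acacb higher, Mlycd lower) and 0 to 3 with 1 library left out. The members' median under SW033291 was 0.093 under median-of-ratios scaling. Members above all young libraries numbered 12 without aged batch 1 replicate 4 and 3 over all 9 aged libraries, both chosen after seeing the data. Members above 0 numbered 28 of 34 under median-of-ratios scaling and 21 after quantile normalization under SW033291 (9 in the fit reported), 18 under median-of-ratios scaling between the batches (26 reported), and 29 without aged batch 1 replicate 4 with age (23 reported), where Slc27a4, Cpt1b, Cpt2, Pdk4, Ppard and Acacb turned to above 0. Among the members described in full, directions reversed for Crat under SW033291 (0.090 under median-of-ratios scaling, 0.016 after quantile normalization) and for Pdk4 between the batches (0.15 with a replicate block). With 1 library left out, the log2 difference ran from -0.92 to 0.071 for Pdk4 with age, from -0.062 to 0.81 for Acaca under SW033291, and from -0.92 to 0.64 for Pdk4 and -0.55 to 0.035 for Fabp3 between the batches. The causes were not tested. The replicate block joined libraries with equal numbers in their titles, which the labels do not call pairs. Its counts therefore rest on an assumed pairing. The replicate numbers gave no sign of pairing, but too few numbers are shared to exclude it. Libraries that share number 3 or 4 with age correlated at 0.17 and 0.04 in their deviations. Those that share number 2 or 3 between the batches correlated at -0.15 and -0.06. No paired analysis was possible under SW033291 because its groups share no number. Depth is unknown, so counting error could not be set beside these values, and groups of 3 limit what can be detected.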
